A study of Mus musculus with 15 samples.

Results

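The genes described here are 8 markers of touch neurons, of proprioceptors and of glutamate release: Th, Slc17a6, Slc17a7, Slc17a8, Pvalb, Calb1, Calb2 and Spp1. They were taken by symbol from the 54108 gene symbols of the table, and all 8 were found there. The study asked how spinal cord injury (SCI) changes sensory neurons that supply the skin below the injury. RNA was sequenced from 5 SCI mice (cord compressed for 1 min at T10 with a vessel clip of 15 g), 5 sham mice (bone and muscle removed only) and 5 naïve mice, all female C57BL/6J aged 8 to 12 weeks. Neurons were labeled from the hairy hindpaw skin with a fluorescent wheat germ agglutinin 2 days before surgery and were sorted 4 days after it from lumbar ganglia L2 to L6. About 3000 labeled cells of 10 to 30 µm per mouse gave 1 library, so the sort set the cell sizes that could be measured. Naïve mice were housed in groups and operated mice singly, and housing and surgery cannot be told apart in comparisons with naïve mice.

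Touch is carried by low-threshold mechanoreceptors (LTMRs), some with unmyelinated axons (C-LTMRs) and some with myelinated ones (A-LTMRs), and limb position is carried by proprioceptors. In the mouse, C-LTMRs of hairy skin are known for Th, the rate-limiting enzyme of catecholamine synthesis, and for Slc17a8 (VGLUT3). Slc17a6 (VGLUT2) and Slc17a7 (VGLUT1) also load glutamate into synaptic vesicles, VGLUT2 in most ganglion neurons and VGLUT1 mainly in large myelinated ones. Pvalb (parvalbumin), Calb1 (calbindin) and Calb2 (calretinin) are calcium-binding proteins of the EF-hand type found in subsets of large neurons. Spp1 (osteopontin) is a secreted matrix protein found in proprioceptors and other large neurons, and in bone cells and macrophages.

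Values are reads of a gene scaled to the total of its library, here called CPM. Reads assigned to genes, recovered from the scaled values, numbered 3000636 to 4385542 in SCI, 2568656 to 7389487 in sham and 1321632 to 7465583 in naïve libraries. Depth below means these reads, which are fewer than the total per sample stated in the study's methods. The shallowest libraries were naïve 1 and naïve 4. The nociceptor genes Scn10a and Trpv1 averaged 817 and 367 CPM, and Scn10a had 802 ± 86.0 CPM in SCI, 673 ± 129 in sham and 975 ± 272 in naïve mice (SD, n = 5 each). All 8 nociceptor markers had a lower estimate in sham than in naïve mice, with a median log2 difference of -0.53 beside 0.17 over all genes tested. In this comparison limma passed 0 of them and DESeq2 passed 4, and all 233 genes that DESeq2 called were lower in sham mice. The part of the nociceptor marker shift in the members' differences was not tested. Satellite glia and Schwann cell markers were present in every library, with sums over 8 and 6 genes of at least 1419 and 1069.7 CPM. Their medians were 2129 and 1441 CPM in SCI, 1821 and 1326 in sham and 2551 and 1962 in naïve mice, and their part in the results below was not tested. The libraries are bulk samples, in which fewer cells of a type and less RNA per cell cannot be told apart.

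The 3 transporters are close relatives, so it was first asked whether reads of 75 nt could be shared among them. The windows below are the 75 coding bases of Slc17a6 with the fewest differences in total from Slc17a7 and Slc17a8, each within exon 2 of its gene (GENCODE M21, GRCm38). Capitals mark bases that differ from Slc17a6.
Slc17a6, chr7:51625418-51625492, plus strand: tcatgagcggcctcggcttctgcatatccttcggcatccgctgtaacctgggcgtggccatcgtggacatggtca
Slc17a7, chr7:45168852-45168926, plus strand: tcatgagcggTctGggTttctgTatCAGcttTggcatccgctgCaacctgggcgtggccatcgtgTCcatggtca
Slc17a8, chr10:89606618-89606692, minus strand: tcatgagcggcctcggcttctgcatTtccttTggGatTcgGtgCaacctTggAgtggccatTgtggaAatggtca

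Even here Slc17a7 had 11 and Slc17a8 had 10 differences from Slc17a6. No window of 75 bases was identical between any pair of the 3 main transcripts, and the closest coding windows of the pairs held 9 or 10 mismatches. Calb1 and Calb2 were further apart, with 15 mismatches in their closest window. Spp1 was the member with shared exon bases, 309 bases or 18.75% of its exons, which lie in the same-strand gene model Gm42793.

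By level, Slc17a6 and Th led the 8 genes. Per kb of merged exons the means over 15 libraries (± SD) were 41.4 ± 4.84 CPM per kb for Slc17a6, 39.4 ± 15.1 for Th, 18.1 ± 15.6 for Spp1, 9.45 ± 2.85 for Slc17a8, 4.84 ± 4.67 for Pvalb, 4.36 ± 3.60 for Slc17a7 and 2.08 ± 1.39 for Calb1. Calb2 was at 0. On the same scale Scn10a and Trpv1 had 102.5 and 99.8 CPM per kb. Each member overlapped its neighbour in this order in the range of its libraries, apart from Calb2, and per kb of the longest transcript Slc17a7 (7.63 CPM per kb) stood above Pvalb (5.16). Of the genes tested, 93.4% lay below Slc17a6 per kb of merged exons, 54.8% below Slc17a8 and 22.1% below Calb1.

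**Figure D1:**
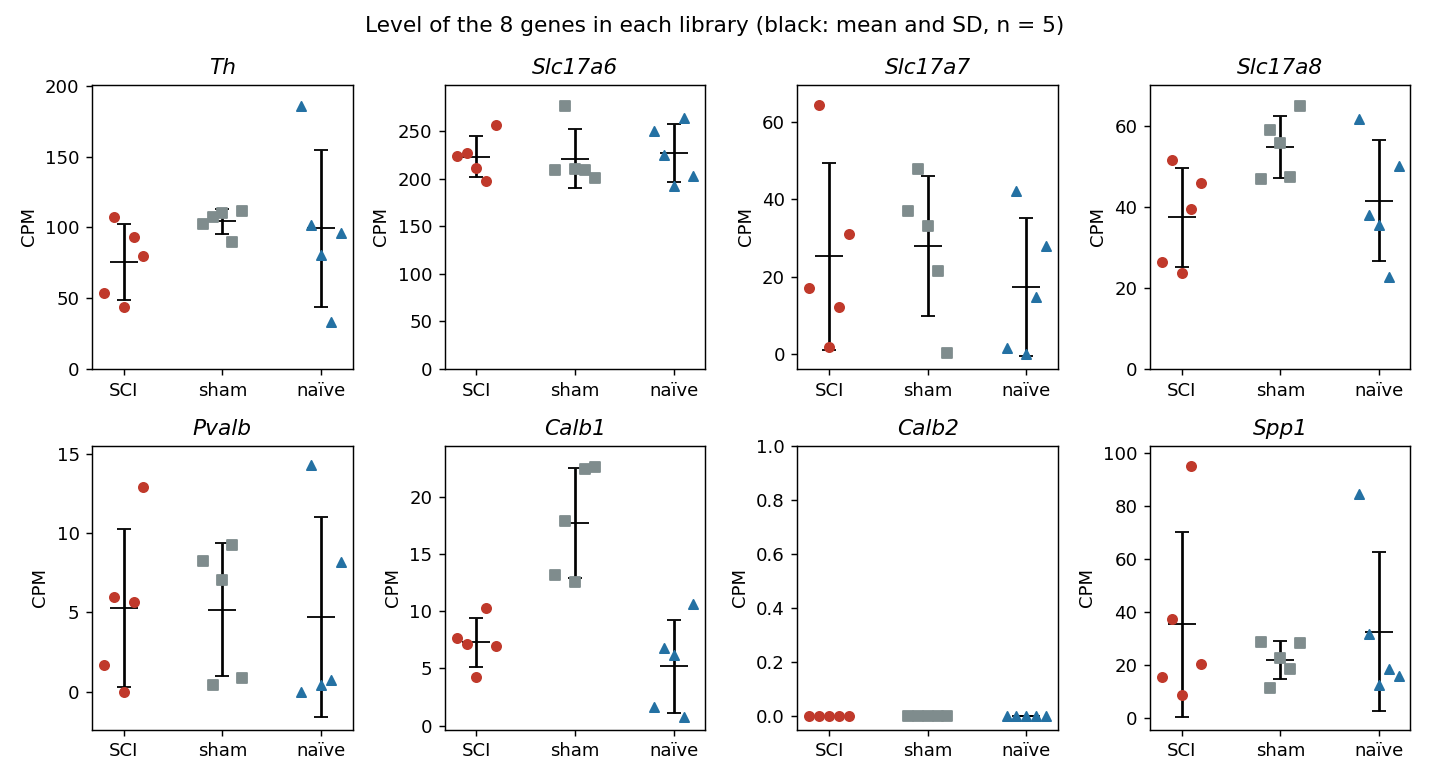
Level of the 8 genes in each library. The vertical axes give CPM, each point is 1 library of the SCI, sham or naïve group, and black marks give the mean and SD (n = 5). Slc17a6 lies between 192 and 276 CPM throughout, Slc17a7 and Pvalb reach 0 in some libraries, and Calb1 lies higher in all 5 sham libraries than in the others.

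Differences were tested with limma on log2(CPM + 1) in 16000 genes that averaged 1 CPM or more, with p-values adjusted by the Benjamini-Hochberg method over all of them. Of the 7 members tested, 0 passed at an adjusted p under 0.05 in SCI against naïve, SCI against sham or sham against naïve, where 0.0% of all genes passed as well. By limma at an unadjusted p under 0.05 there were 0 of 7 members in SCI against naïve (724 genes, 4.53% of all), 2 of 7 in SCI against sham (Slc17a8 and Calb1; 623 genes, 3.89%) and 1 of 7 in sham against naïve (Calb1; 2651 genes, 16.6%). On the recovered reads, DESeq2 passed 0 members in each comparison, against 0.0%, 0.025% and 21.0% of the genes it gave an adjusted p, and edgeR passed 0 genes. In sham against naïve DESeq2 gave an adjusted p to 1111 genes, of which Slc17a6 was the 1 member. DESeq2 called 233 of these genes, 0 higher and 233 lower in sham mice.

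**Figure D2:**
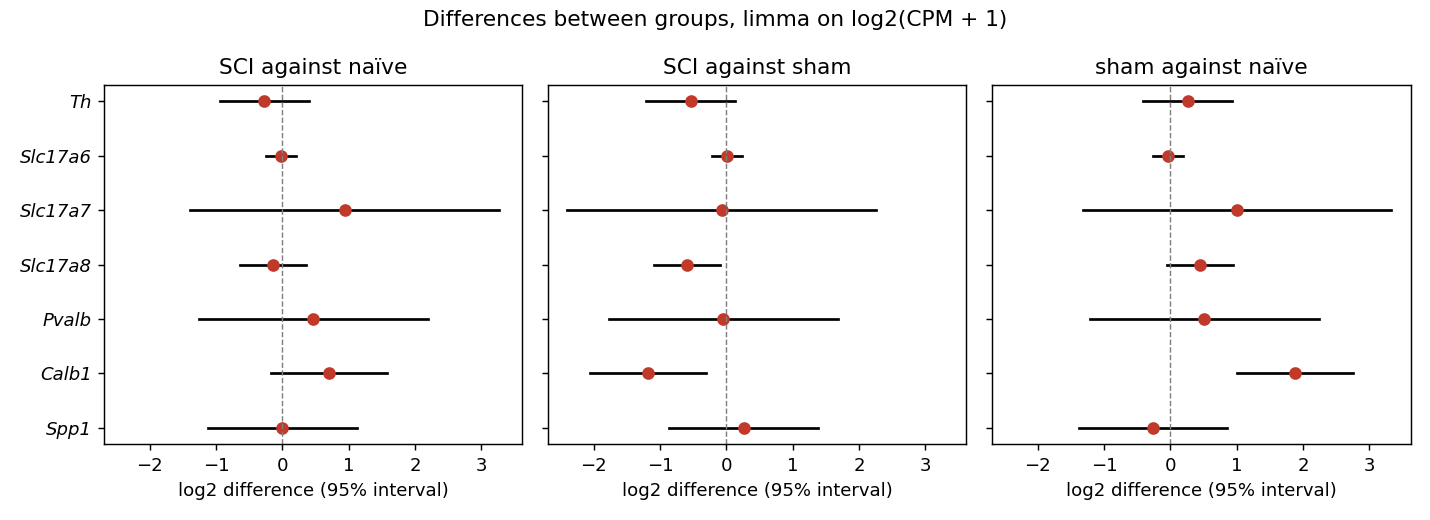
Differences between groups for the 7 members tested. The horizontal axes give the log2 difference on the log2(CPM + 1) scale, points the estimate and lines its 95% interval from limma. The intervals of Slc17a6 are the shortest and those of Slc17a7 the longest, and the interval of Calb1 lies below 0 in SCI against sham and above 0 in sham against naïve.

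Calb1 was the 1 member with groups that did not overlap. Calb1 (4:15881264 to 15908064, plus strand) had 7.64, 7.16, 4.28, 10.3 and 6.98 CPM in SCI mice, 13.2, 17.9, 12.6, 22.5 and 22.6 CPM in sham mice and 1.58, 6.81, 6.20, 0.731 and 10.7 CPM in naïve mice. Every sham library lay above every SCI and every naïve library, while the SCI and naïve libraries overlapped. The means were 7.28 ± 2.15 CPM in SCI, 17.7 ± 4.83 in sham and 5.20 ± 4.09 in naïve mice (SD, n = 5 each).

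The log2 difference of Calb1 was -1.18 in SCI against sham (95% interval -2.05 to -0.31, limma adjusted p = 0.897) and 1.88 in sham against naïve (1.01 to 2.76, limma adjusted p = 0.300). In SCI against naïve it was 0.70 (-0.17 to 1.58, limma adjusted p = 0.898). Calb1 had the second smallest p of the 16000 genes in sham against naïve, yet did not pass, and the median difference of all genes there was 0.17. Of all genes tested 1.26% were lower in every SCI than in every sham library and 0.256% higher, and 0.588% were higher in every sham than in every naïve library and 0.0563% lower. In SCI against naïve 0.325% were higher and 0.138% lower without overlap, and 0 members were among them. All comparisons with sham mice share the same 5 sham libraries, and those with naïve mice the same 5 naïve libraries.

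Calb1 also moved with depth. Its level had a slope of 0.77 log2 units per doubling of the reads after group means were removed (limma adjusted p = 0.00667), in a table where 36.7% of genes had a positive slope that passed and 9.6% a negative one. Within groups r of Calb1 with depth was 0.57 in SCI, -0.13 in sham and 0.91 in naïve mice (5 libraries each). With a depth term, the difference was -0.80 in SCI against sham (limma adjusted p = 1.00) and 1.12 in sham against naïve (limma adjusted p = 1.00). The 2 lowest naïve values came from the shallowest libraries, with 2 reads in naïve 1 and 1 read in naïve 4, and without these libraries the difference in sham against naïve was 1.07. Without naïve 5, the deepest library, it was 2.20 and passed (limma adjusted p = 0.0276), as did 10.9% of all genes.

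Libraries of like depth can be set side by side for Calb1, in pairs picked after the values were seen. Sham 2, with 2568656 reads, had 17.9 CPM, against 6.20 CPM in naïve 3, with 2532675 reads. Sham 1 and naïve 5, with 7389487 and 7465583 reads, had 13.2 and 10.7 CPM, and their Poisson intervals of 10.7 to 16.2 and 8.42 to 13.4 CPM overlapped. These intervals cover counting error only.

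**Figure D3:**
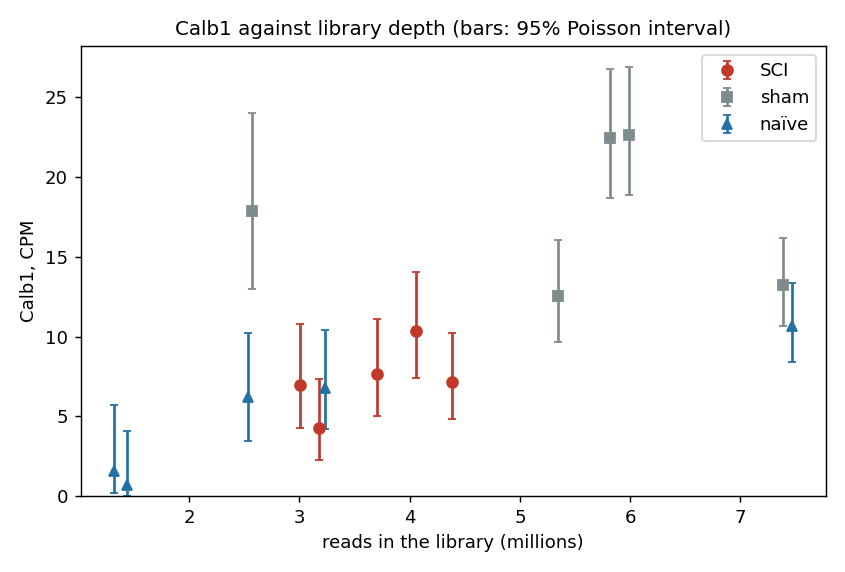
Calb1 against library depth. The horizontal axis gives the reads of the library, the vertical axis Calb1 in CPM, points are libraries of the SCI, sham and naïve groups and bars are 95% Poisson intervals of the reads. The shallowest naïve libraries have the lowest values, and sham 2, one of the shallower libraries, has 17.9 CPM.

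Calb2 (8:110137502 to 110168210, minus strand) had 0 reads in each of the 15 libraries. A count of 0 allows up to 3 reads, which is 0.422 CPM in the deepest library and 2.37 CPM in the shallowest, so calretinin was not detectable here. Whether the counting could have missed its reads cannot be told from the table, since the annotation and strand setting used are not stated. No fold change or test could be given. Of the other EF-hand calcium-binding genes 14 of 16 were tested and 0 passed limma in any comparison. DESeq2 passed 2 in sham against naïve, both lower in sham mice, as were all of its calls there. Ocm (oncomodulin) was the lowest of the 16 with 1 read in all. In sham against naïve the list's median log2 difference was -0.04 beside 0.17 over all genes tested.

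Th (7:142892752 to 142931128, minus strand) had 53.5, 107.6, 43.8, 93.0 and 79.6 CPM in SCI mice. It had 102.7, 107.3, 110.5, 89.7 and 111.7 CPM in sham mice and 186, 102, 80.2, 32.9 and 95.7 CPM in naïve mice. The sham libraries were close together and the naïve ones spread from 32.9 to 186 CPM, and all groups overlapped. Th averaged 75.5 ± 26.6 CPM in SCI, 104 ± 8.94 in sham and 99.3 ± 55.4 in naïve mice (SD, n = 5 each). Its log2 difference was -0.53 in SCI against sham (95% interval -1.21 to 0.14), -0.27 in SCI against naïve (-0.94 to 0.40) and 0.26 in sham against naïve (-0.41 to 0.94).

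Slc17a8 (10:89574020 to 89621253, minus strand) had 26.3, 51.5, 23.7, 39.5 and 46.1 CPM in SCI mice. It had 47.0, 58.9, 55.9, 47.5 and 64.9 CPM in sham mice and 61.7, 38.0, 35.6, 22.7 and 50.2 CPM in naïve mice. Of the SCI libraries, SCI 2 alone lay above the lowest sham library. Slc17a8 averaged 37.4 ± 12.1 CPM in SCI, 54.8 ± 7.66 in sham and 41.6 ± 14.9 in naïve mice (SD, n = 5 each). The log2 difference was -0.59 in SCI against sham (-1.09 to -0.09, limma adjusted p = 0.897), -0.14 in SCI against naïve (-0.63 to 0.36) and 0.45 in sham against naïve (-0.04 to 0.95).

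Th and Slc17a8 varied together from library to library. Over the 15 libraries Pearson's r of their log2 values was 0.91 and Spearman's rho 0.91, and r was 0.92 after group means and the slope on depth were removed. Within groups r was 0.95 in SCI, 0.78 in sham and 0.95 in naïve mice (5 libraries each), and without the 2 libraries farthest from the median of Th it was 0.81. These are descriptions of values that share a library, and their cause was not tested. Per kb of merged exons Th stood at 4.01 ± 0.479 times Slc17a8 in SCI, 3.83 ± 0.350 times in sham and 4.52 ± 1.23 times in naïve mice (SD, n = 5 each). The genes most like Th by the same measure, among 11580 that averaged 10 CPM or more, were Vav3 (r = 0.93), D130079A08Rik (0.91) and Slc17a8 (0.91), and after removal of group and depth Vav3 (0.94), D130079A08Rik (0.93) and AW551984 (0.93). Those most like Slc17a8 were Vav3 (0.96), D130079A08Rik (0.95) and Scin (0.94), and after removal of group and depth Fam19a4 (0.96), a secreted protein of C-LTMRs, Vav3 (0.95) and Nexn (0.95).

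**Figure D4:**
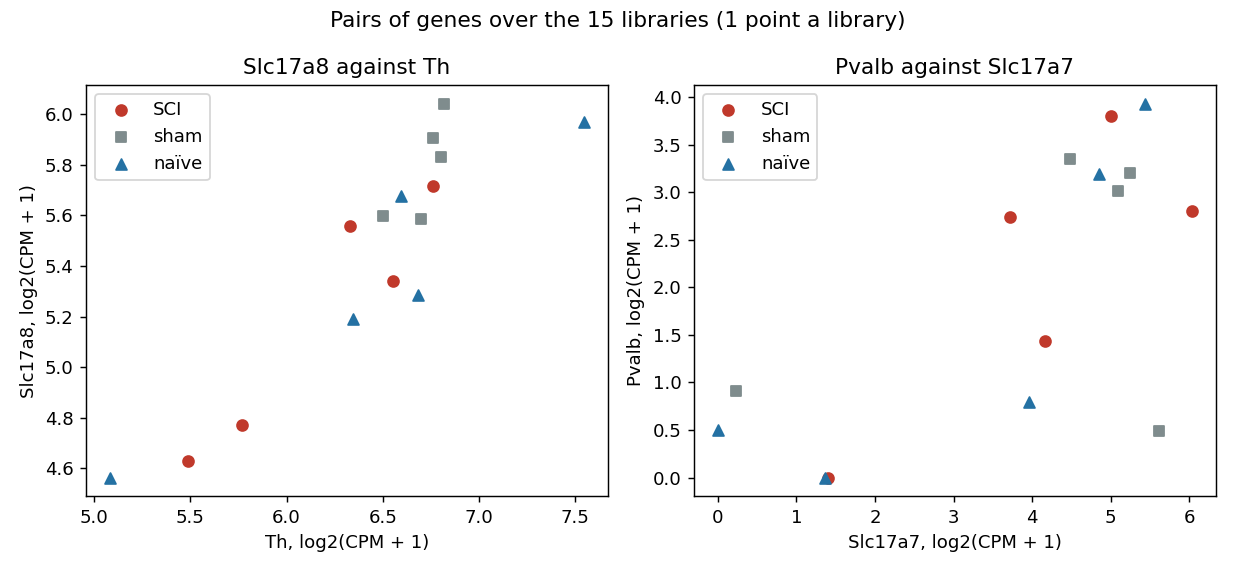
Pairs of members over the 15 libraries. Both axes give log2(CPM + 1), and each point is 1 library of the SCI, sham or naïve group. Slc17a8 follows Th (r = 0.91), and Pvalb follows Slc17a7 less closely (r = 0.70), with several libraries near 0 for both.

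The stretch before the start site of Th and of Slc17a8 is printed below, with 250 bases each from RefSeq (GRCm38.p6), 5′ to 3′ on the gene's strand. Promoters of 6 of the 8 members were found there. Capitals mark matches to the E-box CANNTG and the cyclic AMP response element TGACGTCA, searched with the RUNX core TGTGGT on both strands.
Th, chr7:142899996-142900245, minus strand: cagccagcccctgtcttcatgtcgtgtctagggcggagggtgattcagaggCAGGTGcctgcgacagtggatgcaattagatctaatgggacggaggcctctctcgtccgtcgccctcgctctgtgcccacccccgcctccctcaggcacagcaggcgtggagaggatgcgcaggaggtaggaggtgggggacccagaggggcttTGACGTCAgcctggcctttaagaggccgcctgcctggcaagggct
Slc17a8, chr10:89621250-89621499, minus strand: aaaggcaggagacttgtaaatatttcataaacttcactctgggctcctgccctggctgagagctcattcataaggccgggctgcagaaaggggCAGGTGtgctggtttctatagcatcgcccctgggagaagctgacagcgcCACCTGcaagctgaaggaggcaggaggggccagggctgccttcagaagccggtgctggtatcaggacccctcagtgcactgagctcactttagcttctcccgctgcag

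Th held 1 E-box and 1 response element, which ran from base -45 to base -38 before the start site. Slc17a8 held 2 E-boxes in the window shown, the first of its 2 listed start sites. An E-box stood in 66.2% of the 32851 promoter windows of this length, the response element in 1.55% and the RUNX core in 14.0%. Neither gene held the RUNX core in this window. Whether any of these matches bears on the shared variation of the 2 genes was not tested.

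Other genes of C-LTMRs did not pass either. In a list of 6 (Fam19a4, Zfp521, P2ry1, Bhlha9, Gfra2 and Piezo2) all were tested, 0 passed limma in any comparison and 0 passed DESeq2 or edgeR. At an unadjusted limma p under 0.05 there were 2 of 6 in each comparison. The shares of all genes were 4.53% in SCI against naïve, 3.89% in SCI against sham and 16.6% in sham against naïve. All 6 had a lower estimate in SCI than in sham mice, with a median log2 difference of -0.29 beside -0.07 over all genes. Piezo2, the mechanically gated channel of touch neurons, averaged 505 CPM and Gfra2, a co-receptor for neurturin, 190 CPM. Bhlha9 was the lowest of the list at 18.8 CPM. The summed level of the 6 ran from 661 to 981 CPM in SCI, 877 to 1220 CPM in sham and 894 to 1118 CPM in naïve mice, and the groups overlapped. Piezo2 and Gfra2 made up most of this sum, so it follows them more than the rest of the list, such as Fam19a4 at 58.3 CPM.

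The other enzymes and transporters of catecholamines were at or near 0 beside Th. Ddc, which turns L-DOPA into dopamine, had 20 reads in all 15 libraries, Dbh, which makes noradrenaline, 10 reads, and Slc6a3, the dopamine transporter, 1 read, against 5512 reads for Th. Of 14 catecholamine genes 9 were tested and 0 passed, and Maoa, which breaks catecholamines down, led the list with 93.6 CPM before Qdpr, which regenerates a cofactor of Th, with 64.9 CPM. Markers of sympathetic neurons, which also use Th, were checked in the same libraries. Phox2a had 1 read and Hand2 had 2 reads in all libraries, Slc18a2, a vesicular monoamine transporter, was the 1 gene of 7 with a mean over 1 CPM (10.3 CPM), and the sum of the 7 ran from 6.22 to 14.2 CPM in SCI, 5.29 to 16.2 in sham and 7.79 to 14.5 in naïve mice.

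Slc17a6 (7:51622006 to 51671119, plus strand) was the steadiest member. It had 224, 227, 212, 198 and 256 CPM in SCI mice, 209, 276, 211, 209 and 200.4 CPM in sham mice and 250, 225, 192, 264 and 203 CPM in naïve mice. All groups overlapped, and sham 2 was the highest library. The log2 difference was -0.02 in SCI against naïve (95% interval -0.24 to 0.21), 0.02 in SCI against sham (-0.21 to 0.25) and -0.04 in sham against naïve (-0.26 to 0.19). With a depth term the direction turned in each comparison, to 0.07, -0.07 and 0.14. The level fell by 0.18 log2 units per doubling of depth (limma adjusted p = 0.00894). Its SD within groups was 0.17 on the log2 scale, beside a median of 0.28 over all genes tested.

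The genes most like Slc17a6 over the 15 libraries were Tmem25 (r = 0.93), Fgf1 (0.91) and Stoml1 (0.91). After group and depth were removed they were Rapgef4 (0.96), Tmem41a (0.95) and Tmem25 (0.94).

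Slc17a7 (7:45163949 to 45176142, plus strand) was the least steady. It had 16.97, 64.4, 1.65, 12.1 and 31.1 CPM in SCI mice, 37.1, 48.0, 33.2, 21.4 and 0.175 CPM in sham mice and 1.58, 42.2, 0, 14.6 and 28.0 CPM in naïve mice. Each group held at least 1 library under 2 CPM and at least 1 above 40 CPM. Sham 5 held 1 read among 5993183, whose Poisson interval reaches 0.977 CPM, and sham 2 held 118 reads among 2568656.

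The SD of Slc17a7 within groups was 2.11 on the log2 scale, above that of 99.98% of the genes tested. Its log2 difference was 0.94 in SCI against naïve (-1.38 to 3.26), -0.07 in SCI against sham (-2.40 to 2.25) and 1.01 in sham against naïve (-1.31 to 3.34). Single libraries moved these values: without naïve 3, which had 0 reads, they were 0.16 in SCI against naïve and 0.23 in sham against naïve, without SCI 3 the first was 1.60, and without sham 5 the second was 1.99. The genes most like it were Lgi3 (r = 0.90), Rasl10b (0.89) and Vsnl1 (0.88), and after group and depth were removed Vsnl1 (0.96), a neuronal calcium sensor, Tmx2 (0.92) and Lgi3 (0.89). Vsnl1 was on the list of large myelinated neuron genes and also on that of other EF-hand calcium-binding genes.

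Among the 3 transporters, Slc17a6 held most of the summed level per kb. Its share was 77.7 ± 8.71% in SCI, 71.0 ± 2.13% in sham and 77.9 ± 6.78% in naïve mice (SD, n = 5 each). Slc17a8 held 14.5 ± 3.11%, 20.4 ± 3.93% and 16.4 ± 5.29% in SCI, sham and naïve mice. Slc17a7 held 7.85 ± 6.64%, 8.60 ± 5.16% and 5.72 ± 5.88%, with single libraries from 0 to 18.4%. Per kb of merged exons Slc17a8 stood above Slc17a7 in 14 of 15 libraries, with SCI 2 the exception. Per kb of the longest transcript it did so in 11, with sham 1, sham 2 and naïve 2 as further exceptions.

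**Figure D5:**
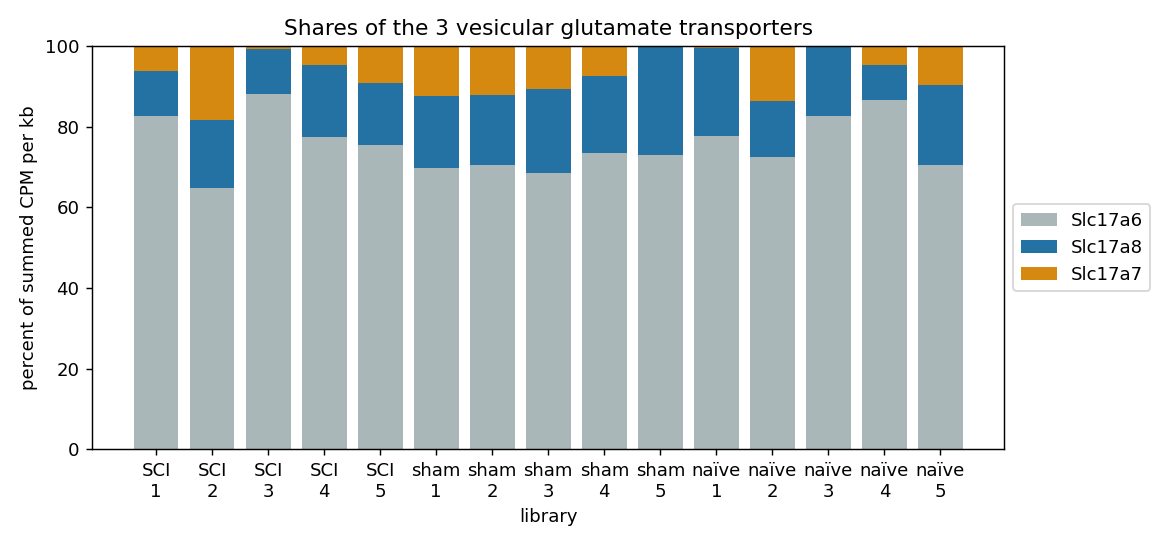
Shares of the vesicular glutamate transporters. The vertical axis gives each gene's percent of the summed CPM per kb of Slc17a6, Slc17a8 and Slc17a7, and each bar is 1 library, grouped as SCI, sham and naïve. Slc17a6 is the largest share in each, from 64.8% to 88.0%, and the Slc17a7 share ranges from 0 to 18.4%.

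Of the vesicular transporters for other transmitters, Slc32a1 (GABA and glycine) and Slc18a3 (acetylcholine) had 0 reads in all libraries, and Slc17a5, a lysosomal sialic acid transporter of the same family, led with 61.2 CPM. Of the 6, 3 were tested and 0 passed in any comparison. Genes of glutamate supply and uptake were abundant. Glul, the glutamine synthetase of glia, averaged 307 CPM and Slc38a2, a glutamine carrier, 306 CPM, while Slc1a1 was the lowest with 1.27 CPM. All 11 were tested, limma passed 0 and DESeq2 passed Glul in sham against naïve (log2 difference -0.66), where all of its calls were lower in sham mice. The list's median log2 difference was 0.02 in SCI against naïve, 0.02 in SCI against sham and 0.00 in sham against naïve, beside 0.08, -0.07 and 0.17 over all genes.

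Pvalb (15:78191114 to 78206400, minus strand) had 1.70, 5.96, 0, 5.68 and 12.9 CPM in SCI mice. It had 8.24, 0.407, 7.07, 9.24 and 0.877 CPM in sham mice and 0, 14.3, 0.413, 0.731 and 8.15 CPM in naïve mice. Like Slc17a7 it was near 0 in some libraries of each group and clear of 0 in others, with at most 58 reads in a library. Its log2 difference was 0.47 in SCI against naïve (-1.26 to 2.20), -0.04 in SCI against sham (-1.77 to 1.69) and 0.51 in sham against naïve (-1.22 to 2.24). It had a slope of 1.39 per doubling of depth (limma adjusted p = 0.0184), and with a depth term the directions turned, to -0.21, 0.65 and -0.86.

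Pvalb and Slc17a7 had r = 0.70 (rho 0.55) over the 15 libraries and 0.73 after group and depth were removed. Within groups r was 0.81 in SCI, 0.39 in sham and 0.83 in naïve mice, where rho in sham mice was -0.30. Sham 2 had 48.0 CPM of Slc17a7 beside 0.407 CPM of Pvalb. Skeletal muscle also makes parvalbumin, and the muscle marker list summed to 2.44 to 5.96 CPM in SCI, 3.25 to 8.15 in sham and 4.22 to 8.70 in naïve mice, with Acta1 the highest and Tnnt3 the lowest, at 7 reads in all.

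Genes of the neurons that these markers stand for were read in the same libraries. Of 5 proprioceptor genes, 5 were tested and 0 passed. Etv1 and Whrn averaged 98.4 and 59.8 CPM, while Runx3, a transcription factor of proprioceptors, was the lowest at 1.82 CPM. Of 8 A-LTMR genes 8 were tested and 0 passed, with Ntrk2, the BDNF receptor, at 567 CPM, the calcium channel gene Cacna1h at 219 CPM and Colq the lowest at 1.34 CPM. All 8 had a higher estimate in sham than in naïve mice, with a median log2 difference of 0.37 beside 0.17 over all genes. Of the 8, 0 had an unadjusted limma p under 0.05 there, and Ntrk2 was nearly level, at 577 CPM in sham and 575 in naïve mice. With a depth term the median over all genes in this comparison was 0.014, and the median of the list was not taken in that fit. Of 11 large myelinated neuron genes, led by the channel Kcna2 and the neurofilament Nefm at 474 and 473 CPM, limma passed 0. DESeq2 passed Nefm and Nefl in sham against naïve, both lower in sham mice, as were all of its calls there.

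Spp1 (5:104435118 to 104441050, plus strand) was set apart by single libraries. It had 15.3, 37.2, 8.57, 95.04 and 20.2 CPM in SCI mice, 28.7, 11.4, 22.6, 18.3 and 28.2 CPM in sham mice and 84.6, 31.8, 12.4, 18.3 and 15.6 CPM in naïve mice. SCI 4 and naïve 1 stood far above the other 13 libraries, which ran from 8.57 to 37.2 CPM. The log2 difference was 0.00 in SCI against naïve (-1.12 to 1.12), 0.26 in SCI against sham (-0.86 to 1.38) and -0.26 in sham against naïve (-1.38 to 0.86). Without SCI 4 it was -0.21 in SCI against sham, and without naïve 1 it was 0.17 in sham against naïve.

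Markers of other cells were read in the same libraries. In SCI 4 the bone cell markers Bglap, Ibsp, Sp7 and Dmp1 summed to 47.8 CPM, with 32.8 CPM of Ibsp (bone sialoprotein). Naïve 4 had a sum of 34.4 CPM and 859 CPM of the collagen Col1a1, but 18.3 CPM of Spp1. The other 13 libraries summed to 0 to 7.87 CPM. By group the sums ran from 0.659 to 47.8 CPM in SCI, 0 to 3.27 in sham and 0.791 to 34.4 in naïve mice.

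In naïve 1 the 10 macrophage markers summed to 195 CPM, against at most 120 CPM in the others. Most of the sum in naïve 1 was Lyz2 (lysozyme), at 149 CPM, with 17.4 CPM of Cd68. In the others Lyz2 reached 23.2 CPM. The sum of 120 CPM was that of SCI 2, which had 20.8 CPM of Lyz2 and 5.73 CPM of Cd68. Outside naïve 1, Cd68 was highest in SCI 4, at 7.75 CPM. The other markers of the list are not given here by library. By group the sums ran from 16.1 to 120 CPM in SCI, 13.8 to 81.1 in sham and 20.4 to 195 in naïve mice. The part of these cells in the Spp1 level was not tested.

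Receptors of osteopontin were present, with Itgb1 at 273 CPM and Cd44 at 238 CPM, and Itga5 the lowest at 4.76 CPM. Of 8, 8 were tested and limma passed 0. DESeq2 passed Itgb1 and Cd44 in sham against naïve, both lower in sham mice (log2 difference -0.38 each), as were all of its calls there. The genes most like Spp1 over the 15 libraries were Dhrs7 (r = 0.88), Snf8 (0.85) and Ctnnbip1 (0.82), and after group and depth were removed Tmem62 (0.95), Fam174a (0.89) and Dhrs7 (0.88). Those most like Calb1 were Tsga10 (0.93), Fam172a (0.93) and Zfp994 (0.93), and after removal Nxt2 (0.92), Arl2bp (0.89) and Cbx8 (0.88).

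Among the pairs of tested members other than Th with Slc17a8 and Slc17a7 with Pvalb, r of the log2 values ran from -0.42 (Slc17a6 with Calb1) to 0.57 (Th with Spp1). After group and depth were removed Slc17a6 with Slc17a7 had r = 0.79 and Th with Spp1 0.68.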

How the data were processed

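Single-end reads were aligned by the authors to mm10 (HISAT2) and assigned to genes (HTSeq), by the submitters' processing notes. The deposited signal carries the name RPKM, but in each library every value (100%, tolerance 1e-06 of a read) was a whole number of reads times 1 step that does not depend on gene length. It is read here as CPM, scaled to 94.9 to 95.8% of the reads. The annotation, strand setting and duplicate treatment are not given in the sources used here. Lines with a number for a name (27, at most 0.21% of reads) are in the library totals but were not tested. Where lines shared a symbol, the line of highest mean stood for it, and 97 other lines were left out.

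The main test was limma 3.58.1 (R 4.3.3) on log2(CPM + 1), genes averaging 1 CPM or more, 15 libraries, 1 mean per group, and was tested on simulated data. Alternatives were pseudocounts, filters, median-ratio rescaling, edgeR 4.0.16, DESeq2 1.42.0, a replicate block, a depth term, fewer groups and fewer libraries. Median-ratio rescaling moved the median log2 difference of all genes by -0.07 in SCI against naïve, 0.07 in SCI against sham and -0.13 for sham against naïve. The limma p-values set a difference of group means against the spread within groups between libraries, 1 per mouse.

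The members, gene lists and tests were chosen with earlier results of these data known. Named are the members, 2 top genes and the lowest gene of each list, list genes that pass, and the 3 genes most like each member that average 10 CPM or more. Genes outside this rule (Ddc, Dbh, Slc6a3, Nefl, the single marker genes of other cells) were named after their values were seen. An exact permutation test was planned for members under 1 CPM, and Calb2, at 0 throughout, gave nothing to test. Single genes of 2 lists are not reported here.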

Additional observations from a re-analysis of the deposited data

Results flagged for a closer look

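By Dixon's test on 5 libraries a group, in which chance marks about 1 in 20 groups, 2 of 21 groups of members held a library that stood apart. Slc17a6 was at 276 CPM in sham 2, where the other sham libraries had 200.4 to 211 CPM. Spp1 was at 84.6 CPM in naïve 1, where the other naïve libraries had 12.4 to 31.8 CPM.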

How the results depend on the processing

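The 21 differences of the 7 tested members were recomputed under 26 alternatives, or 25 for Pvalb, which a filter at a mean of 10 CPM removed. Filters, the replicate block, the fit of only the 2 groups compared and leaving out libraries of the third group leave a difference as it was. Such settings could not turn a direction, so the other alternatives alone bear on it. In 7 of the 21 differences the direction never turned: Th in SCI against sham, Slc17a7 in both comparisons with naïve mice, and Slc17a8 and Calb1 in both comparisons with sham mice. Over these alternatives Calb1 ran from 1.07 to 2.24 in sham against naïve (limma and edgeR adjusted p 0.0276 to 1.00), and among the settings that gave an adjusted p it passed without naïve 5 alone (2.20). DESeq2 gave Calb1 a log2 difference of 1.49 there and an unadjusted p of 2.73e-05, with no adjusted p.

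Against 0 genes by limma, DESeq2 called 4 in SCI against sham and 233 in sham against naïve. Leaving out 1 library at a time, limma called 0 in SCI against naïve, 0 in SCI against sham and 0 to 1752 in sham against naïve, the highest without naïve 5. The remaining values are log2 differences whose direction turned. With a depth term Slc17a6 was 0.071 in SCI against naïve, -0.071 in SCI against sham and 0.14 in sham against naïve, Pvalb was -0.21, 0.65 and -0.86 in the same order, and Slc17a7 was 0.24 in SCI against sham. Without the 2 shallowest libraries, SCI against naïve was 0.11 for Slc17a6, -0.39 for Pvalb and -0.11 for Calb1, and sham against naïve was 0.089 for Slc17a6, -0.35 for Pvalb and 0.17 for Spp1. With DESeq2, Th was -0.078 in sham against naïve, Pvalb 0.12 in SCI against sham and Spp1 -0.028 in SCI against naïve. With edgeR, Th was -0.043 in sham against naïve and Pvalb was -0.12 in SCI against naïve, 0.035 in SCI against sham and -0.16 in sham against naïve. Median-ratio rescaling gave 0.017 for Pvalb in SCI against sham and -0.070 for Spp1 in SCI against naïve, and a pseudocount of 0.1 gave 0.21 for Slc17a7 in SCI against sham and -0.00379 for Spp1 in SCI against naïve. Per kb of the longest transcript, Pvalb minus Slc17a7 was -2.46 CPM per kb, against 0.488 per kb of merged exons. The cause of these turns was not tested.

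Leaving out 1 library at a time moved SCI against naïve from -0.61 to 0.00361 for Th, -0.075 to 0.039 for Slc17a6, 0.16 to 1.60 for Slc17a7, -0.33 to 0.023 for Slc17a8 and -0.47 to 0.43 for Spp1. It moved SCI against sham from -0.031 to 0.10 for Slc17a6, -1.05 to 0.59 for Slc17a7, -0.47 to 0.50 for Pvalb and -0.21 to 0.62 for Spp1, and sham against naïve from -0.077 to 0.54 for Th, -0.12 to 0.020 for Slc17a6, 0.23 to 1.99 for Slc17a7 and -0.50 to 0.17 for Spp1.

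Groups share replicate numbers 1 to 5, but same-numbered libraries did not deviate together (r from -0.35 to 0.34, over 0.1 in 3 of 15 pairs). With a replicate block 0 genes were called in each comparison and Calb1 in sham against naïve was 1.88 (limma adjusted p = 0.354). Pvalb, Calb1 and Slc17a7 each had libraries with 2 reads or fewer, and Calb2 gave no value under any setting.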
